A study of Mus musculus with 8 samples.

Results

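The genes described here are 10 components of the Notch pathway: the receptors Notch1, Notch2 and Notch3, the ligands Dll1 and Jag1, the effectors Hey1, Heyl and Hes1, the feedback inhibitor Nrarp and the DNA-binding factor Rbpj. They were chosen by symbol, and all 10 were found among the 17847 genes of the expression table. The cells were muscle stem cells sorted from skeletal muscle of C57Bl/6 mice, as CD34+ cells negative for CD31, CD45, Sca1 and a dead-cell dye. A Cox10 allele flanked by loxP sites was combined with Pax7-Cre (ERT2), a recombinase that is made in Pax7-expressing cells and is active only in the presence of tamoxifen. The protein Cox10 makes a precursor of haem A, without which complex IV of the respiratory chain is not assembled. There were 4 libraries labelled wild-type and 4 labelled Cox10-/-, and the labels give the same single tamoxifen dose of 200 mg/kg for all 8, with collection 2 days later. The labels do not say whether the wild-type animals carried the Cre driver or the floxed allele, nor the age of the animals, nor whether each library came from its own animal. If libraries share animals, the p-values measure only the spread between these samples.

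Notch receptors are single-pass membrane proteins that are cleaved when a Delta or Jagged ligand on a neighbouring cell binds them. The released intracellular part enters the nucleus and joins Rbpj, which then switches on genes such as those of the Hes and Hey families of transcriptional repressors. In resting muscle stem cells, Notch signalling is known to maintain quiescence and to hold back myogenic differentiation, and loss of Rbpj in these cells leads to depletion of the stem cell pool.

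Levels are log2 CPM, the log2 of a gene's reads scaled to a common library total, and the table sets every CPM of 1 or less to 0. The libraries held 1685840 to 4623940 reads in genes, as recovered from the steps between low values, with Cox10-/- replicate 4 the shallowest and wild-type replicate 2 next at 2137667. For Cox10 itself, the wild-type libraries read 3.98, 3.42, 4.12 and 3.69, in the order of their replicate numbers, and the Cox10-/- libraries 3.51, 3.69, 3.49 and 2.05. The same order is kept for every gene. The genotypes overlapped, and the difference of -0.62 ± 0.34 (SE) did not pass the test (limma adjusted p = 0.246). The labels give no position for the loxP sites, so this level is a weak check of the deletion. In bulk samples, fewer cells of a type and less RNA per cell cannot be told apart.

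In Cox10-/- cells 5 of the 10 Notch genes fell, 1 rose and 4 did not pass the threshold of 0.05 on the limma adjusted p. Over all 17801 genes tested, 8.51% fell and 7.58% rose, 16.1% in all. Notch3 fell the most, followed by Heyl, Dll1, Hey1 and Notch1, and Nrarp rose. Notch2, Jag1, Hes1 and Rbpj did not pass. All 4 Cox10-/- libraries lay below all 4 wild-type libraries in 6 of the 10 genes, against 11.8% of all genes, and above them in 1, against 9.3% (21.1% in either direction). The median difference of the 10 was -0.41 (log2), beside -0.055 for all genes tested. Of all 2863 genes that passed, 47.1% rose as deposited and 58.4% (of 3023) after each library was centred on its median. No Notch gene changed direction with that centring.

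**Figure D1:**
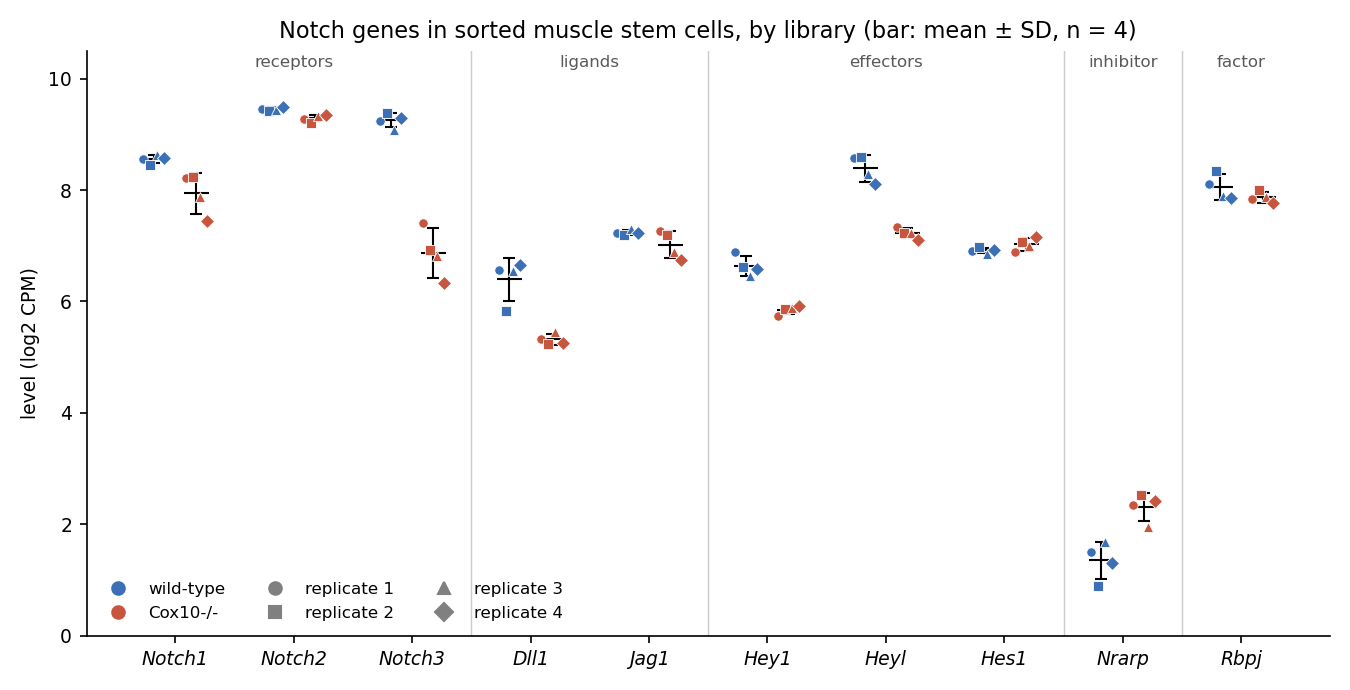
Level of each Notch gene (log2 CPM, y axis) in every library, with 1 point for each library, shaped by replicate number and coloured by genotype, and the mean ± SD of 4 libraries as a black bar. Notch3 lies between 9.08 and 9.38 in wild-type and between 6.33 and 7.41 in Cox10-/-, while the points of Jag1, Hes1 and Rbpj overlap between genotypes.

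Among the receptors, Notch3 showed the largest difference. It stood at 9.24, 9.38, 9.08 and 9.30 log2 CPM in wild-type, and at 7.41, 6.93, 6.81 and 6.33 in Cox10-/-. The highest Cox10-/- library lay 1.67 below the lowest wild-type library. Notch3 fell by 2.38 ± 0.18 (log2, SE, n = 4 per genotype, limma adjusted p = 6.33e-06), so that the geometric mean was 19.2% of wild-type (95% interval 14.7% to 25.1%). Among the 6921 genes with a mean log2 CPM of 5 or more over both genotypes, this difference ranked 6 among the falls. The spread within Cox10-/- (SD 0.444) was wider than within wild-type (SD 0.127). Taken apart, the first 2 replicates of each genotype differed by -2.14 and the last 2 by -2.62.

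Notch1, which together with Notch2 is known to keep these cells quiescent, fell less. Its wild-type levels were 8.56, 8.45, 8.63 and 8.57, and its Cox10-/- levels were 8.21, 8.23, 7.88 and 7.44. The genotypes did not overlap, and the Cox10-/- libraries (SD 0.37) were spread more widely than the wild-type libraries (SD 0.075), with replicate 4 the lowest. Notch1 fell by 0.61 ± 0.15 (limma adjusted p = 0.016), by 0.285 over the first 2 replicates and by 0.94 over the last 2. Across genes, wild-type replicates 1 and 2, wild-type replicates 3 and 4 (r = 0.981) and Cox10-/- replicates 1 and 2 (r = 0.98) were each other's closest libraries, while Cox10-/- replicate 3 was about as close to replicate 2 (r = 0.972) as to replicate 4 (r = 0.97). When replicates 1 and 2, and 3 and 4, were averaged to give 2 samples per genotype, the call of Notch1 was lost (limma adjusted p = 0.0865).

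Notch2 was the steadiest receptor. It lay at 9.46, 9.42, 9.44 and 9.49 in wild-type and at 9.28, 9.21, 9.33 and 9.34 in Cox10-/-. The genotypes were separated by a gap of 0.08, and the difference of -0.16 ± 0.07 did not pass (limma adjusted p = 0.154, 95% interval -0.32 to -0.003). After median centring the difference was -0.08.

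The proportions of the 3 receptors differed between genotypes. Levels of different genes were compared as CPM per kb, dividing by the length of all annotated exons of each gene. Notch3 made up 41.4%, 44.9%, 38.5% and 42.0% of the summed level of Notch1, Notch2 and Notch3 in the wild-type libraries. In the Cox10-/- libraries it made up 19.0%, 14.7%, 14.0% and 11.1%. The share of Notch2 went from 36.6% ± 1.0 to 59.4% ± 7.1 (SD, n = 4), without overlap, and that of Notch1 from 21.7% ± 1.6 to 25.9% ± 4.4, with overlap. The summed level of the 3 receptors was 183.0 ± 5.14 CPM per kb in wild-type and 101.0 ± 8.91 in Cox10-/-. These shares are of RNA only and rest on the same values as the differences above.

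**Figure D2:**
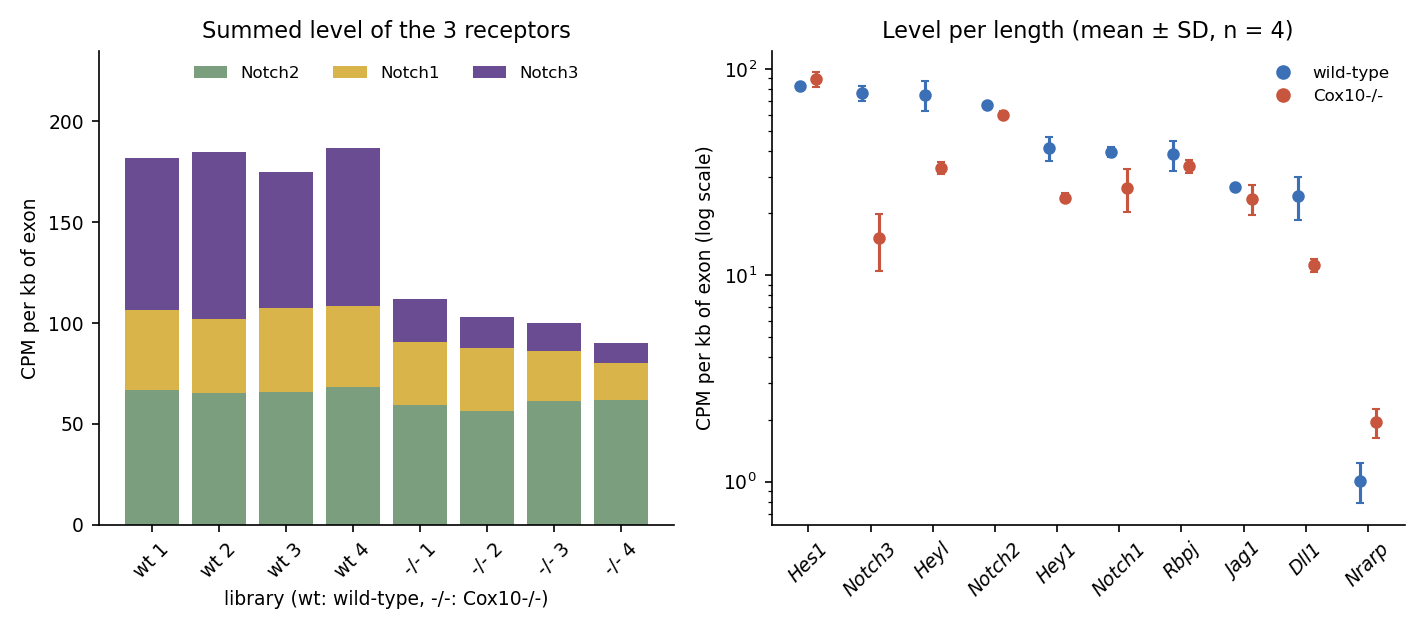
Left, summed CPM per kb of exon of Notch2, Notch1 and Notch3 (stacked bars) in each of the 8 libraries. Right, CPM per kb of exon (log scale) of the 10 genes, mean ± SD of 4 libraries per genotype, in the order of their wild-type level. The Notch3 segment makes up 38.5% to 44.9% of the bar in wild-type and 11.1% to 19.0% in Cox10-/-.

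Per length, the order of the 10 genes in wild-type was Hes1 (82.4 ± 2.6 CPM per kb, SD, n = 4), Notch3 (76.2 ± 6.58), Heyl (74.8 ± 12.2), Notch2 (66.7 ± 1.38), Hey1 (41.3 ± 5.38), Notch1 (39.6 ± 2.03), Rbpj (38.5 ± 6.33), Jag1 (26.9 ± 0.875), Dll1 (24.2 ± 5.6) and Nrarp (1.01 ± 0.223). Neighbours in this order overlapped between libraries, except Notch2 above Hey1, Rbpj above Jag1 and Dll1 above Nrarp. In Cox10-/- the order was Hes1 (89.1 ± 7.08), Notch2 (59.7 ± 2.43), Rbpj (33.7 ± 2.36), Heyl (33.1 ± 2.15), Notch1 (26.5 ± 6.29), Hey1 (23.8 ± 1.22), Jag1 (23.4 ± 3.91), Notch3 (15.1 ± 4.63), Dll1 (11.2 ± 0.807) and Nrarp (1.94 ± 0.312). There, Hes1 lay above Notch2, Notch2 above Rbpj and Dll1 above Nrarp without overlap, and the other neighbours overlapped. Notch3 thus moved from rank 2 to rank 8, and Hes1 and Nrarp stayed at the ends.

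The ligands behaved unequally. Dll1, a Delta-type ligand made in the myogenic lineage, stood at 6.57, 5.83, 6.54 and 6.66 log2 CPM in wild-type and at 5.32, 5.23, 5.46 and 5.26 in Cox10-/-. All Cox10-/- libraries were below the lowest wild-type library, replicate 2, which stood apart from the other wild-type libraries. Dll1 fell by 1.08 ± 0.17 (limma adjusted p = 0.00108), to 47.2% of wild-type, and by 1.27 without wild-type replicate 2.

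Jag1, a ligand of the Jagged type, lay at 7.22, 7.19, 7.30 and 7.23 in wild-type and at 7.26, 7.19, 6.88 and 6.75 in Cox10-/-. Cox10-/- replicates 1 and 2 lay within the wild-type range, and replicates 3 and 4 lay below it. The difference of -0.215 ± 0.12 did not pass (limma adjusted p = 0.228, 95% interval -0.47 to 0.04), and it was 0.02 over the first 2 replicates and -0.45 over the last 2, where alone it passed (limma adjusted p = 0.0238). Dll1 minus Jag1 within a library was -1.36 to -0.57 in wild-type and -1.96 to -1.42 in Cox10-/- (log2 CPM, in which the lengths of the genes add the same constant to both).

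Of the effectors, both Hey-family genes fell and Hes1 did not pass. Heyl encodes a basic helix-loop-helix repressor that is abundant in resting muscle stem cells. It went from 8.58, 8.60, 8.29 and 8.10 in wild-type to 7.34, 7.23, 7.23 and 7.11 in Cox10-/-. The genotypes were 0.76 apart at their closest, and Heyl fell by 1.165 ± 0.12 (limma adjusted p = 4.88e-05), to 44.6% of wild-type.

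Hey1, a related repressor that acts together with Heyl in keeping these cells undifferentiated, was at 6.89, 6.62, 6.46 and 6.58 in wild-type and at 5.74, 5.87, 5.88 and 5.91 in Cox10-/-. No library of either genotype entered the range of the other. Hey1 fell by 0.79 ± 0.11 (limma adjusted p = 5.5e-04), to 57.9% of wild-type. Within a library, Heyl minus Hey1 (log2 CPM, not divided by length) was 1.52 to 1.98 in wild-type and 1.20 to 1.60 in Cox10-/-. These ranges overlap.

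Hes1, a repressor that also responds to signals other than Notch, lay at 6.91, 6.97, 6.86 and 6.93 in wild-type and at 6.89, 7.07, 6.99 and 7.16 in Cox10-/-. The genotypes overlapped, the difference was 0.11 ± 0.09 (limma adjusted p = 0.434), and its 95% interval ran from -0.08 to 0.30. Differences in log2 CPM within a library are not divided by length, so only their shift between genotypes is read. Heyl minus Hes1 was 1.17 to 1.67 in wild-type and -0.05 to 0.45 in Cox10-/-. Hey1 minus Hes1 was -0.40 to -0.02 in wild-type and -1.25 to -1.11 in Cox10-/-. Neither pair of ranges overlapped, and these pairs of genes were compared after their values were seen.

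**Figure D3:**
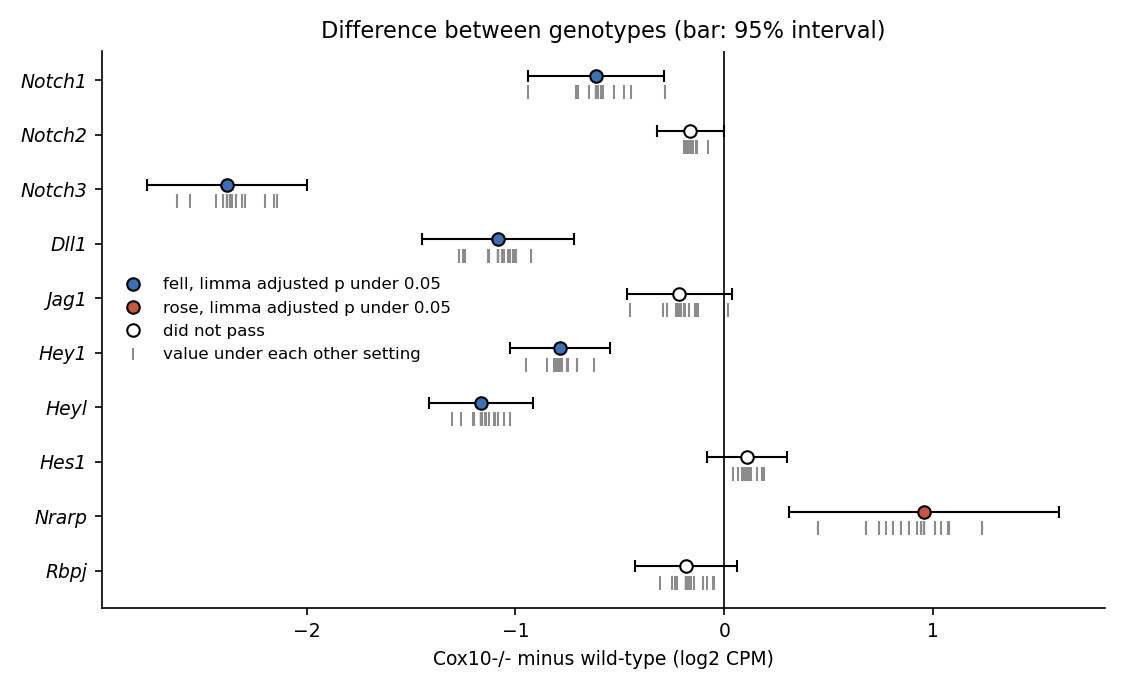
Cox10-/- minus wild-type difference (log2 CPM, x axis) of each Notch gene, with its 95% interval as a bar, and below it, as ticks, the difference under each of 20 other settings. Filled points passed the limma test. Notch3, Dll1, Hey1 and Heyl stay below 0 at every tick, and the ticks of Jag1 reach from -0.45 to 0.02.

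Nrarp, a small ankyrin-repeat protein that promotes loss of the Notch intracellular part and is itself switched on by Notch, moved the other way from the Hey genes. Its levels were 1.5, 0.90, 1.69 and 1.31 in wild-type and 2.35, 2.52, 1.95 and 2.41 in Cox10-/-, with no overlap. These levels rest on few reads: 10, 4, 15 and 10 in wild-type, and 22, 25, 12 and 9 in Cox10-/-. The rise was 0.96 ± 0.30 (limma adjusted p = 0.0464), and it was 0.45 when 4 CPM were added to each value before the log. Its call was lost in each of the 8 fits that left out 1 library (limma adjusted p from 0.0565 to 0.111) and with replicates averaged as above (0.228).

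Rbpj, the factor through which all Notch receptors act on DNA, lay at 8.11, 8.35, 7.89 and 7.85 in wild-type and at 7.84, 8.0, 7.87 and 7.76 in Cox10-/-. The genotypes overlapped, and the difference was -0.18 ± 0.11 (limma adjusted p = 0.299, 95% interval -0.43 to 0.06). The mouse genome has processed copies of Rbpj, and how reads matching several places were counted is not given in the sources used here, so this level is less certain than the others.

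Promoter windows of 7 of the 10 genes were found in a RefSeq table (build GRCm38.p6). Each window reached from 250 bases before to 50 bases after a start site. Hey1, Heyl and Hes1 had no window there, so the promoters of the effectors were not searched. The windows found were searched on both strands for TGGGAA, the core letters that Rbpj binds. Of the 9 windows of these 7 genes, the 2 overlapping windows of Rbpj held a match, and 25.6% of all 32851 windows did. The longer GTGGGAA was in none of the 9 and in 6.38% of all windows. A match is a description of letters, and the lack of one says nothing about binding here or elsewhere. The stretch of Rbpj from 170 to 51 bases before its start, with a match on each strand in capitals, is shown to let the letters be seen. Beside it are the 120 bases before the start of Notch3, which fell the most, and of Nrarp, which rose, and neither holds a match. All are 5′ to 3′ on the strand of the gene.
Rbpj, chr5:53590176-53590295, + strand: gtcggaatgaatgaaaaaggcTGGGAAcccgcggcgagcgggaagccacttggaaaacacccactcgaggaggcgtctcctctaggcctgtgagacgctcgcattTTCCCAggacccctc
Notch3, chr17:32166891-32167010, - strand: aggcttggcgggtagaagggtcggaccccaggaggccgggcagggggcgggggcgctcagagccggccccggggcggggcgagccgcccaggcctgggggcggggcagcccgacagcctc
Nrarp, chr2:25180638-25180757, + strand: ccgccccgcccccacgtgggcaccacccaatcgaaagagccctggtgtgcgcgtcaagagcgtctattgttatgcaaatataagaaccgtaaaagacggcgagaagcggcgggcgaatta

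Other genes of the pathway were taken from a list of 56, of which 51 were tested. Of these, 6 rose, 3 fell and 42 did not pass, 17.6% in all beside 16.1% of all genes, with a median of -0.022 beside -0.055. With replicates averaged as above, 4 passed. Among the coactivators of the Notch complex, 4 of 6 rose, beside 7.58% of all genes. Maml3, a Mastermind protein that bridges the intracellular part of Notch and Rbpj to the transcription machinery, lay at 6.51, 6.5, 6.61 and 6.57 in wild-type and at 7.46, 7.35, 7.60 and 7.38 in Cox10-/-. It rose by 0.90 ± 0.09 (limma adjusted p = 4.6e-05) and its relative Maml2 by 0.77 ± 0.15 (adjusted p = 0.00426), both without overlap. The acetyltransferases Ep300 (0.25 ± 0.07) and Kat2b (0.265 ± 0.08) rose by less, at limma adjusted p = 0.0337 and 0.0413, and after median centring, with differences of 0.335 and 0.35, neither passed (0.17 and 0.0727). Ep300 lost its call in 6 and Kat2b in 7 of the 8 fits without 1 library, up to 0.0969 without wild-type replicate 3 and 0.121 without wild-type replicate 1.

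The receptor Notch4, which is known from endothelium, was low in wild-type at 2.34, 1.90, 2.83 and 1.90, and stood at 4.27, 4.18, 4.29 and 4.24 in Cox10-/-. It rose by 2.00 ± 0.25 (limma adjusted p = 2.86e-04), from 8 to 33 reads in a wild-type library to 32 to 83 in a Cox10-/- library. Dll4, a Delta-type ligand of endothelium, was at 1.5, 0, 0.37 and 0 in wild-type and at 2.48, 2.58, 0.95 and 2.05 in Cox10-/-. The genotypes overlapped and 2 wild-type libraries stood at the floor. The rise of 1.55 ± 0.45 (limma adjusted p = 0.0357) lost its call in 6 of the 8 fits without 1 library (up to 0.0954, without Cox10-/- replicate 2).

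Of 17 endothelial markers, 6 rose (7.58% of all genes did) and none fell in Cox10-/-, with a median of 1.085 beside -0.055. Their summed level was 370.0 to 406.3 CPM in wild-type and 449.3 to 531.7 in Cox10-/-. Tek, Cdh5 and Eng had the highest wild-type means of the 17 (7.175, 6.62 and 5.98 log2 CPM) and weigh most in this sum. Tek and Eng did not pass. None of the 17 stood at the floor in all libraries, but Cldn5, Sox17, Sox18 and Robo4 stood at it in most wild-type libraries. Pecam1, which encodes CD31, was at 3.13 in wild-type and 4.52 in Cox10-/-, and Ly6a, which encodes Sca1, at 1.245 and 3.08, although both proteins were used to exclude cells in the sort. Pecam1 overlapped between genotypes and lost its call in 6 of the 8 fits without 1 library (limma adjusted p up to 0.0763, without Cox10-/- replicate 3), and Ly6a lost it without Cox10-/- replicate 3 (0.0692). Of the other markers that rose, Cdh5 lost its call in 4 of these fits (up to a limma adjusted p of 0.0661, without Cox10-/- replicate 2) and Sox17 without Cox10-/- replicate 3 (0.0571), and both lost it with replicates averaged (0.169 and 0.0973). Lyve1 (2.765), Flt1 (1.705) and Esam (1.625) rose without overlap. All of these kept their call in each of the 8 fits and with replicates averaged (limma adjusted p = 0.00764, 0.0101 and 0.033). Their wild-type reads were few: 5, 0, 10 and 13 for Lyve1, 66, 15, 38 and 25 for Flt1, and 15, 5, 22 and 10 for Esam. The floor thus enters the size of the rise of Lyve1. The part of endothelial transcripts in the values of Notch4, Dll4, Nrarp or any other Notch gene was not tested.

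Of the genes that fell, Pofut1, which adds the O-fucose that Notch receptors need to bind ligand, went down by 0.955 ± 0.16 (limma adjusted p = 0.00215), from 6.40 ± 0.34 to 5.45 ± 0.18 (SD, n = 4). Neurl1a, a ubiquitin ligase of ligand endocytosis, fell by 0.74 ± 0.22 (limma adjusted p = 0.0417) and lost its call in 5 of the 8 fits without 1 library, up to 0.132 without wild-type replicate 1. None of the 10 proteases and protease subunits that cut the receptors passed, with differences from -0.72 to 0.27, and none of 11 genes of receptor turnover, such as Numb and Itch, with differences from -0.26 to 0.315. Hey2 and Hes6 (-0.18 and -0.07) did not pass either. Of all genes tested, 16.1% passed, so the lack of calls in groups this small is not read as a result about them.

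**Figure D4:**
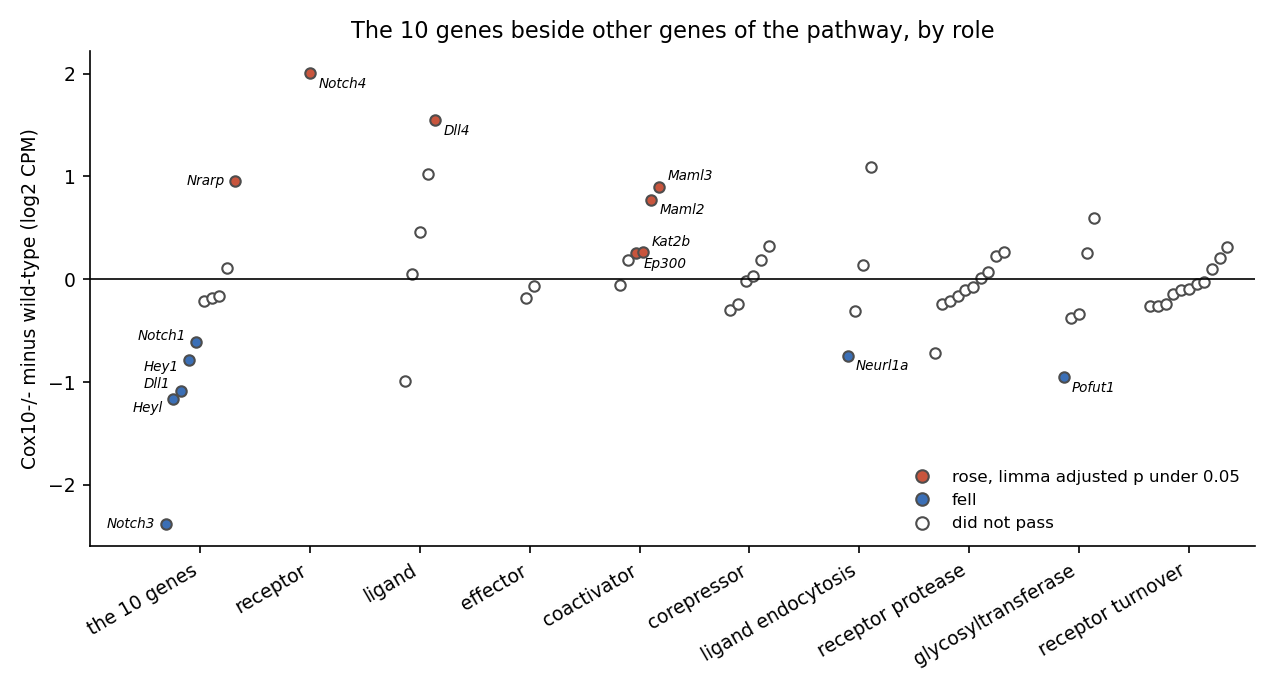
Cox10-/- minus wild-type difference (log2 CPM, y axis) of the 10 Notch genes and of the other reported genes of the pathway, grouped by role, with 1 point per gene. Filled and named points passed the limma test, and outside the 10 Notch genes the coactivators hold 4 of the 6 rises.

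A further list held 16 genes tied to Notch in muscle stem cells, of which 6 fell, none rose and 10 did not pass, 37.5% in all beside 16.1% of all genes, with a median of -0.09 beside -0.055. The list mixes roles, among them collagens, a receptor of collagen V and myogenic factors, and was given no common direction. Its share is therefore not read as a single response to Notch. Dtx1 stands on this list and on the wider one. Calcr, the calcitonin receptor through which collagen V of the niche keeps these cells quiescent, fell by 1.30 ± 0.12 (limma adjusted p = 4.0e-05), from 7.54 to 7.71 in wild-type to 6.02 to 6.61 in Cox10-/-. The collagen genes known as Notch targets in these cells, Col5a1, Col5a2, Col5a3, Col6a1 and Col6a2, did not pass, with differences from -0.25 to 0.095. Pax7, Myf5, Calcr and Cdh15 of this list are also markers of the stem cells. The other genes that fell were Cdh15 (-2.43), Myog (-1.505), Pax7 (-1.29), Myod1 (-1.025) and Myf5 (-0.95). Myog overlapped between genotypes and lost its call in 5 of the 8 fits without 1 library, up to a limma adjusted p of 0.077 without Cox10-/- replicate 2.

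Among markers of the muscle stem cells themselves, 8 of 12 fell (8.51% of all genes did), none rose, and the median was -0.74. After median centring Cxcr4 and Fgfr4 no longer passed (limma adjusted p = 0.152 and 0.0592), and Sdc4 went from -0.015 to 0.07. With replicates averaged, Cxcr4 and Fgfr4 also lost their call (limma adjusted p = 0.215 and 0.0709). Cxcr4 lost it in 2 of the 8 fits without 1 library too, up to 0.0731 without wild-type replicate 1. The summed level of the 12 was 2545.7 to 3175.2 CPM in wild-type and 1647.8 to 1845.6 in Cox10-/-, and their part in the Notch values was not tested. The Notch genes were therefore also set against Pax7 within each library, by their difference in log2 CPM, which leaves out any scale shared by both. The length of a gene adds the same constant in every library, so only the shift between genotypes is read. Heyl minus Pax7 was -0.42 to -0.14 in wild-type and -0.21 to 0.03 in Cox10-/-, and Dll1 minus Pax7 was -2.94 to -1.86 and -2.21 to -1.74, both with overlap. Notch3 minus Pax7 went from 0.52 to 0.78 in wild-type to -0.82 to -0.11 in Cox10-/-, a shift of -1.09 with no overlap. Hey1 minus Pax7 shifted up by 0.50, from -2.15 to -1.83 in wild-type to -1.78 to -1.24 in Cox10-/-, and Notch1 minus Pax7 by 0.675, from -0.32 to 0.18 in wild-type to 0.29 to 0.79 in Cox10-/-. Relative to Pax7, Notch2 (1.125), Rbpj (1.105), Jag1 (1.07), Hes1 (1.40) and Nrarp (2.245) shifted up without overlap, by amounts that contain the fall of Pax7 itself. The picture depends on the marker taken as reference, as the comparison with each of the 12 markers in turn, added after seeing the data, showed. Notch3 lay lower in Cox10-/- without overlap relative to 11 of the 12 and overlapped relative to Cdh15 (a shift of 0.05). Heyl lay lower relative to 6 markers and higher relative to 1, Hey1 lower relative to 5 and higher relative to 3, and Dll1 lower relative to 1 and higher relative to 1. Notch2 lay higher relative to 7, Jag1 and Rbpj to 6 each, Notch1 to 5, Hes1 to 9 and Nrarp to all 12. None of these 6 genes lay lower without overlap relative to any marker. Each shift contains the change of its marker, and 8 of the 12 markers fell and none rose. The counts therefore follow in large part from the differences already given and are no separate test.

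Notch3 and Heyl are also known from mural cells, the pericytes and smooth muscle of vessels. Of 8 mural markers 2 rose (Pdgfrb by 0.91 and Myh11 by 1.28), 2 fell (Cspg4, -0.60, and Acta2, -0.36) and 4 did not pass. Of all genes tested, 7.58% rose and 8.51% fell. Cspg4 lost its call without Cox10-/- replicate 3 (limma adjusted p = 0.0606), and Acta2 in 7 of the 8 fits without 1 library (up to 0.126, without wild-type replicate 1). The summed level of the 8 markers was 991.2 to 1144.3 CPM in wild-type and 1275.4 to 1500.2 in Cox10-/-. The highest markers weigh most in this sum. Des, the highest in wild-type (mean 8.26), did not pass (-0.10), and Myh11 and Pdgfrb were the only markers that rose. The part of the 8 markers in the values of Notch3 and Heyl was not tested.

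For each Notch gene that passed, the 2 genes with the most similar course over the 8 libraries were sought among 12042 other genes whose mean log2 CPM reached 2, leaving out predicted gene models. Likeness was the root-mean-square difference between the log2 profiles, each centred on its own mean. Notch3 was closest to the cyclic nucleotide phosphodiesterase Pde1c (0.10) and the endothelin Edn3 (0.20), which differed between genotypes by -2.38 and -2.305. Heyl was closest to Pknox1 (0.08) and Vav3 (0.12), Hey1 to Mrpl23 (0.07) and Cdon (0.11), and Dll1 to the RNA-binding protein gene Rbm24 (0.09) and Casz1 (0.12). Notch1 was closest to Htt (0.05) and Brsk1 (0.07), and Nrarp to Adgrg1 (0.17) and Fam222a (0.19). No gene was shared between these lists of neighbours. The measure includes the size of the difference between genotypes, which itself varied among these Notch genes, so little sharing was possible.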

How the data were processed

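RNA of 4 wild-type and 4 Cox10-/- libraries of sorted muscle stem cells was measured by RNA-seq with a stranded low-input total RNA kit, per the labels' protocols. Trim Galore, HISAT2, featureCounts, DESeq2 and the build mm9 are named, without roles, in the submitters' processing notes, and for versions the sources used here give none. The deposited unit is log2 CPM with 2 decimals and a floor at 0. A further 1054 rows held no gene. All low values, up to 20 reads, were whole multiples of 1 read within 0.1, which gave each library's depth and, for 1 alternative, reads per gene.

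Genotypes were compared with limma 3.58.1 (R 4.3.3) on the deposited log2 values, with a variance trend, genotype alone, and Benjamini-Hochberg adjustment over 17801 genes with a value above 0 in at least 4 libraries (46 left out). Errors are SE of the fit or SD over libraries. Exon lengths came from GENCODE M21 (GRCm38), used for length only. Code was tested on simulated data. Members, lists and tests were chosen with earlier results of these data known. Named genes were the 10 Notch genes, genes of the 2 pathway lists that passed, Pax7, Myod1, Myog, Calcr, Cox10, and the 2 nearest profiles (predicted gene models left out) of each Notch gene that passed; others were named after their values were seen. 1 gene of the wider pathway list is counted but not reported here by name. Alternatives covered filters, added CPM, centring, replicate terms and left-out libraries; fits on replicates 1 and 2 or 3 and 4 alone were also chosen after seeing the data. edgeR and DESeq2 tests planned on recovered reads were not run, since the deposited unit is log2, and limma-voom was run in their place, chosen after seeing the data.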

Additional observations from a re-analysis of the deposited data

Results flagged for a closer look

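Dll1 in wild-type replicate 2 stood apart, at 5.83 log2 CPM where the other 3 wild-type libraries lay between 6.54 and 6.66. The gap to the nearest of them was 0.855 of the whole range, above Dixon's 95% critical value for 4 samples. This was 1 of 20 groups examined (10 genes in 2 genotypes), and chance marks about 1 in 20.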

How the results depend on the processing

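Over 20 other settings, Notch3 (-2.62 to -2.14), Heyl (-1.305 to -1.025), Dll1 (-1.27 to -0.925) and Hey1 (-0.95 to -0.625) kept their direction and their call, and Notch2, Hes1 and Rbpj kept their direction and did not pass. Notch1 lost its call with means of replicates 1 and 2 and of 3 and 4 (-0.61, limma adjusted p = 0.0865) and in replicates 1 and 2 alone (-0.285, 0.0839). Jag1 was 0.02 in replicates 1 and 2 alone and passed at -0.45 in replicates 3 and 4 alone. Nrarp lost its call in 14 settings. These were all 8 fits without 1 library (0.81 to 1.08), the fit with a replicate block (0.96, adjusted p = 0.0789), the means of replicates (0.96), the fit without the shallowest library of each genotype (0.77), limma-voom (0.84), replicates 1 and 2 alone (1.235) and replicates 3 and 4 alone (0.68). The 8 fits without 1 library gave 5 of the 10 Notch genes, 6 to 9 of the 51 other pathway genes, 5 to 6 of the genes tied to Notch and 1840 to 2907 of all genes, where the 8 libraries gave 6, 9, 6 and 2863. Of all genes, the fit without wild-type replicate 1 gave 1902 and that without Cox10-/- replicate 3 gave 1840. With means of replicates 858 genes and 4 pathway genes passed, and when the contrast of replicates 1 and 2 with 3 and 4 was added to the fit, 15 pathway genes passed (8 higher, 7 lower). The cause of these shifts was not tested, other than that means leave 4 samples in place of 8. Same-numbered libraries deviated together only in part (correlations across genes of 0.045, 0.137, 0.109 and 0.13 for replicates 1 to 4). The highest correlation was between unlike numbers, Cox10-/- replicate 2 with wild-type replicate 1 (0.165). The lowest was Cox10-/- replicate 2 with wild-type replicate 4 (-0.215). The numbers were therefore not taken as pairs. The replicate block gave 3201 genes in all, 5 Notch genes and 10 pathway genes. Of the 10 Notch genes, depth limits Nrarp most, with 4 to 25 reads per library, and of the other pathway genes named, Dll4 had 0 to 26. The edgeR and DESeq2 fits planned on recovered reads were not run.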

Other observations

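Markers of other cells that muscle holds were also measured, and beside them 7.58% of all genes tested rose and 8.51% fell. Of 9 fibro-adipogenic markers 2 rose (Pdgfra by 0.84 and Ly6a by 1.835), 2 fell (Dpt, -0.54, and Col15a1, -0.655) and 5 did not pass, with summed levels of 1664.8 to 2285.7 CPM in wild-type and 1703.3 to 2861.7 in Cox10-/-. Dpt and Col15a1 lost their call without Cox10-/- replicate 2 (limma adjusted p = 0.0503 and 0.0539). Of 9 muscle fibre markers 2 rose (Ckm by 1.54 and Tnnt3 by 1.31) and 7 did not pass, with summed levels of 93.7 to 233.5 and 132.1 to 347.8 CPM. Ckm lost its call in 2 of the 8 fits without 1 library, up to a limma adjusted p of 0.0639 without Cox10-/- replicate 3. Of 5 Schwann and glial markers 1 rose (Cdh19 by 0.47, a call lost in 7 of the 8 fits without 1 library, up to a limma adjusted p of 0.102 without wild-type replicate 3), and the summed levels were 186.2 to 434.8 and 225.6 to 442.3 CPM. Of 10 blood and immune markers 4 were tested and none passed, with summed levels of 25.6 to 35.2 and 27.7 to 47.4 CPM; the other 6, Ptprc among them, were not analysed here.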
